A study of Homo sapiens with 6 samples.

Results

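The MHC class I antigen presentation genes described here are HLA-B, HLA-C, HLA-E, HLA-F, B2M, TAP1, TAP2, TAPBP and NLRC5, chosen by gene symbol from their roles in the pathway. They are 9 of the 23569 genes in the expression table, and all 9 had a mean of at least 0.1 FPKM and were tested with the 15353 genes above that level. FPKM is the number of fragments of a gene scaled to its length and to the total of its library. RNA-seq was performed on TFK1 cells, a human cholangiocarcinoma (CCA) line derived from an extrahepatic bile duct tumour, comparing negative control cells (oeNC, 3 libraries) with STUB1-overexpressing cells (oeSTUB1, 3 libraries), neither of which received a treatment. Both were stable lentiviral populations selected with puromycin, so an effect of STUB1 and a difference between the populations cannot be told apart. STUB1 is an E3 ubiquitin ligase and co-chaperone, and the RNA-seq comparison was made to find genes whose expression changes with it in CCA cells.

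MHC class I molecules show peptides from inside the cell to CD8+ T cells. A polymorphic heavy chain (HLA-B and HLA-C among the classical chains, HLA-E and HLA-F among the nonclassical ones) pairs with the invariant light chain beta-2 microglobulin, encoded by B2M. Peptides made by the proteasome enter the endoplasmic reticulum through the transporter formed by TAP1 and TAP2, and tapasin, encoded by TAPBP, holds the empty heavy chain at the transporter while a peptide is loaded. NLRC5 is the transactivator of class I genes and acts at the SXY module of their promoters. In epithelial tumours class I expression matters because cells that show fewer peptides are less visible to T cells. Other heavy chain genes were not analysed here.

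The libraries held between 33106564 and 36744521 fragments. STUB1 mRNA rose from 32.3 ± 1.23 to 66.1 ± 7.70 FPKM (SD, n = 3) with STUB1 overexpression, with no overlap between groups. UHRF1 and DNMT1, the DNA methylation factors the study linked to it, had log2 fold changes of 0.27 (adjusted p = 0.126, limma) and -0.03 (95% interval -0.31 to 0.25). Replicate 2 of oeSTUB1 stood apart from the other oeSTUB1 libraries, with chi-square values over genes, divided by their degrees of freedom, of 76.7 and 82.6 against 10.02 between replicates 1 and 3, and 3.48 to 10.4 between the oeNC libraries. Results that turn on it are therefore given with and without it. KRT7, KRT8 and KRT18, keratins of bile duct epithelium, were at 502 ± 23.0, 3216 ± 173 and 3964 ± 111 FPKM in oeNC cells, whereas KRT19 was at 0.453 ± 0.0776 FPKM. Of 10 biliary markers 2 were called higher and 6 lower. The lower calls numbered 2 to 3 without oeNC replicate 1, 2 or 3 or oeSTUB1 replicate 1 or 3, and KRT8 and KRT18 were among those lost each time. KRT19 was higher (log2 fold change 2.47) and EPCAM (-1.13) and CDH1 (-1.09), epithelial adhesion genes, were lower in 15 of 15 alternatives. The summed level of the 10 markers was 7548 to 8140 FPKM in oeNC and 4816 to 6377 FPKM in oeSTUB1 libraries, and the part of these shifts in the class I values was not tested. Of 12 leukocyte markers, 6 were high enough to be tested and 0 passed in either direction by limma or limma-voom, with 3 at an unadjusted p under 0.05 and a median log2 fold change of 0.53. Without oeNC replicate 3, CD53 (1.75, adjusted p = 0.0318, limma) and LAPTM5 (1.32, adjusted p = 0.0337, limma), both leukocyte membrane proteins, were called higher. The summed level of the 12 markers was 5.99 to 9.38 FPKM in oeNC and 8.37 to 9.14 FPKM in oeSTUB1 libraries. Of the 12, 3 had at most 3 fragments in every library, CD2 and MS4A1 among them. The part of leukocyte transcripts in the class I values was not tested. Of 10 fibroblast markers, 2 were tested and 0 passed by either tool (1, LUM, was lower without oeSTUB1 replicate 2), with 2 at an unadjusted p under 0.05, at a summed 1.402 to 2.40 and 2.25 to 4.13 FPKM. No label says that the replicates came from separate cultures, so the p-values measure the spread between these libraries alone. As in any bulk sample, fewer cells of a kind and less RNA per cell cannot be told apart.

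STUB1 overexpression went with a higher level of the light chain and of tapasin, while no heavy chain gene passed the test. In mean FPKM, B2M was 41.6% and TAPBP 22.1% higher in oeSTUB1 cells. These were the 2 of 9 genes that passed an adjusted p of 0.05 (limma, Benjamini-Hochberg over all genes tested), in a table where 7.01% of tested genes were called higher and 6.59% lower. By limma 0 of the 9 were called lower, 0 fell at an unadjusted p under 0.05 and limma-voom on fragments also called 0 lower. At an unadjusted p under 0.05 the genes that were higher numbered 5, against 16.0% of all tested genes. The 3 oeSTUB1 libraries lay above all oeNC libraries for B2M, TAP1, TAP2, TAPBP and NLRC5, which is 5 of 9 genes where 21.5% of all tested genes showed the same, and for 0 of the 4 heavy chains. The reverse, seen in 17.3% of all tested genes, was seen in 0 of the 9. The log2 fold change was above 0 in 7 of the 9, beside 52.6% of all tested genes. Of these 4, limma and limma-voom called 0, and 1 (HLA-B) was higher at an unadjusted p under 0.05. No gene of the 9 passed the second rule, which adds an absolute log2 fold change over 1 and which 5.2% of all tested genes passed. The median log2 fold change was 0.26 over the 9 genes, -0.02 over the 4 heavy chains and 0.29 over the other 5, beside 0.02 over all genes tested.

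**Figure D1:**
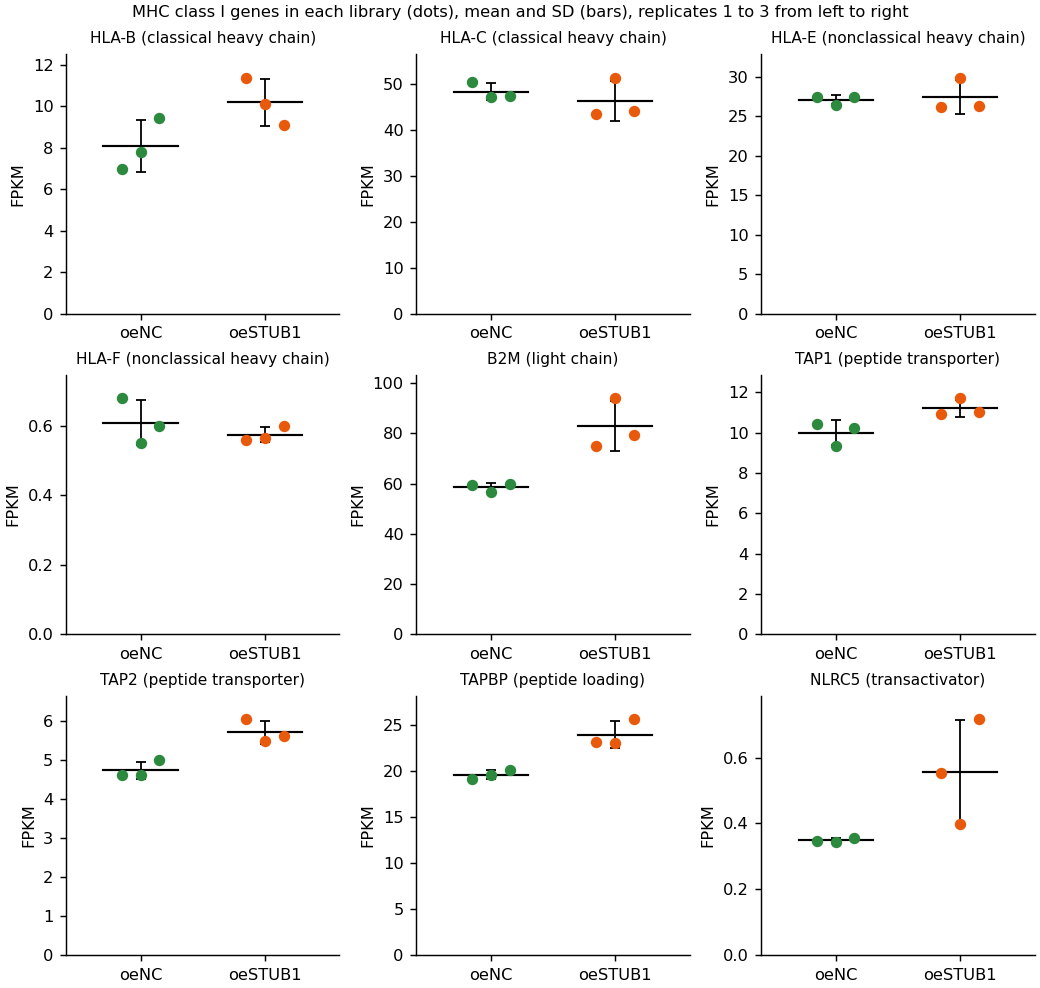
Expression of the 9 genes in FPKM (vertical axes from 0) in each of the 3 oeNC and 3 oeSTUB1 libraries, with dots for libraries, a horizontal line for the mean and a bar for the SD. The oeSTUB1 dots of B2M (74.9 to 94.0 FPKM) and TAPBP (23.0 to 25.6 FPKM) sit above all oeNC dots, whereas those of the 4 heavy chain genes overlap with them.

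B2M encodes the light chain that every class I heavy chain needs to leave the endoplasmic reticulum. It lies on chromosome 15 (GRCh38, GENCODE release 29, 44711487 to 44718877, plus strand) and shares no stretch of 50 bases with another annotated gene. Its level was 59.3, 56.5 and 59.7 FPKM in oeNC replicates 1 to 3 and 74.9, 94.0 and 79.5 FPKM in oeSTUB1 replicates 1 to 3. All oeSTUB1 libraries were above all oeNC libraries, and replicate 2 was the highest. The means were 58.5 ± 1.75 and 82.8 ± 9.93 FPKM (SD, n = 3), a log2 fold change of 0.49 on log2(FPKM + 0.1) with a standard error of 0.0977, a 95% interval of 0.27 to 0.72 and an adjusted p of 0.0152 (limma). The values rest on 5570 to 6242 fragments in oeNC and 7344 to 8849 in oeSTUB1 libraries. Without oeSTUB1 replicate 2 the log2 fold change was 0.40 (adjusted p = 0.0015, limma). The call was lost without oeNC replicate 1, 2 or 3, at log2 fold changes of 0.50, 0.47 and 0.51 and adjusted p-values of 0.0670, 0.0825 and 0.0598 (limma).

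TAPBP encodes tapasin, which bridges the heavy chain to the peptide transporter. It lies on chromosome 6 (33299694 to 33314387, minus strand) at the edge of the MHC region. Its level was 19.1, 19.5 and 20.1 FPKM in the oeNC libraries and 23.1, 23.0 and 25.6 FPKM in the oeSTUB1 libraries, so the groups did not overlap. The means were 19.6 ± 0.498 and 23.9 ± 1.46 FPKM (SD, n = 3), with a log2 fold change of 0.29, a standard error of 0.0772, a 95% interval of 0.11 to 0.46 and an adjusted p of 0.0479 (limma). This call was close to the threshold. It was made in 4 of 15 alternative settings, one of which left out oeSTUB1 replicate 2 (0.31, adjusted p = 0.0092, limma), and without any other library the adjusted p was between 0.0775 and 0.193 at log2 fold changes of 0.24 to 0.31. With limma-voom on 2635 to 3476 fragments per library the log2 fold change was again 0.29 and the adjusted p was 0.0528.

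The sequences upstream of the called pair and of the classical heavy chains are printed to show the class I promoter elements next to the values. RefSeq (GRCh38.p14) gave a promoter window for 7 of the 9 genes, and the 250 bases before the annotated start are shown 5′ to 3′ on the strand of the gene. Capitals mark matches on either strand to the core of the interferon-stimulated response element (ISRE), searched as GAAA and GAAA with any 2 bases between them, to CCAAT (the NF-Y box, part of the SXY module), TGACG (a core of the X2 box of that module) and the core of the kappa B site, searched as GGGA and CC with any 4 bases between them, and neighbouring capitals can be overlapping matches.
B2M (chr15:44711267-44711516, plus strand): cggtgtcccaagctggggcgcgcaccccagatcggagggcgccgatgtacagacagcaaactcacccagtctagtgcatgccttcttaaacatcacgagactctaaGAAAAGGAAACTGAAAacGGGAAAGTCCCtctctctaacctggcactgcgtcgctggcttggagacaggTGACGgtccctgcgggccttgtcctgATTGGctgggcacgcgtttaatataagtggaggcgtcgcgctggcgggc
TAPBP (chr6:33314079-33314328, minus strand): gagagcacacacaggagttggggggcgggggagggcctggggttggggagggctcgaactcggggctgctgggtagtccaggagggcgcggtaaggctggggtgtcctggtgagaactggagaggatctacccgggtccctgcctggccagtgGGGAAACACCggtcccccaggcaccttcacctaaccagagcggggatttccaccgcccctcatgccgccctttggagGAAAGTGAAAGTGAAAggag
HLA-B (chr6:31357180-31357429, minus strand): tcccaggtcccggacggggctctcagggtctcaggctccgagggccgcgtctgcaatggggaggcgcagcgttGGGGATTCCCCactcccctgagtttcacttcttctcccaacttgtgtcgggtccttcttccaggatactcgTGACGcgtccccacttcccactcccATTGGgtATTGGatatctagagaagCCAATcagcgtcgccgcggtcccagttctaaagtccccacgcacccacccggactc
HLA-C (chr6:31272093-31272342, minus strand): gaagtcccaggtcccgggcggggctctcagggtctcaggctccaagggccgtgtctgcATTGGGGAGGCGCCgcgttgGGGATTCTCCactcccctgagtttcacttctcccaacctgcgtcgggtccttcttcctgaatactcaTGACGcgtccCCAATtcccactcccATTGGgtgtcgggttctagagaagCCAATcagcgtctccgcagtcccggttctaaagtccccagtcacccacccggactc

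The B2M window held the ISRE core in 2 overlapping copies between 144 and 129 bases before the start, and the TAPBP window held 2 overlapping copies between 20 and 5 bases before it. The windows of HLA-F, TAP1 and TAP2 also held the motif, and those of HLA-B and HLA-C held no match to these letters. The search takes these exact letters alone and leaves an element with other letters unmarked. A window without a match can therefore still hold such an element. CCAAT was found in HLA-B, HLA-C, HLA-F, B2M and TAP1, and TGACG in HLA-B, HLA-C, B2M and TAP2. Of 35093 windows of this length 3.02% held the ISRE core, 32.0% CCAAT, 21.2% TGACG and 22.6% the kappa B core. Among 394 tested genes whose window held the ISRE core, 13.5% were called higher and 6.09% lower, beside 6.94% and 6.19% of the 11980 tested genes with a window. These shares are a description and were not tested. PSMB8, IRF1 and GBP1, list genes called higher and described below, were also searched. The window of GBP1 held the ISRE core, and those of PSMB8 and IRF1 held no match to it.

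HLA-B and HLA-C are the classical heavy chains in this set, which present peptides to CD8+ T cells and, for HLA-C above all, engage inhibitory receptors of NK cells. HLA-B was at 6.98, 7.79 and 9.43 FPKM in the oeNC libraries and at 11.4, 10.1 and 9.11 FPKM in the oeSTUB1 libraries. The groups overlapped, since oeSTUB1 replicate 3 was below oeNC replicate 3. The means were 8.07 ± 1.25 and 10.2 ± 1.14 FPKM (SD, n = 3), a log2 fold change of 0.34 (95% interval 0.03 to 0.65, adjusted p = 0.135, limma), and across 15 alternatives the log2 fold change lay between 0.24 and 0.46 with adjusted p-values of 0.0919 to 0.373.

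HLA-C was the most abundant heavy chain of the 4, at 50.4, 47.1 and 47.4 FPKM in oeNC and 43.4, 51.3 and 44.1 FPKM in oeSTUB1 libraries. The oeSTUB1 libraries spanned the whole range of the oeNC libraries, with replicate 2 the highest of all. The means of 48.3 ± 1.84 and 46.3 ± 4.39 FPKM (SD, n = 3) gave a log2 fold change of -0.06 with a 95% interval of -0.27 to 0.14 (adjusted p = 0.668, limma). It came to -0.14 (adjusted p = 0.0642, limma) when that library was left out.

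HLA-E presents leader peptides of other class I chains to NK cells, and HLA-F is a weakly expressed nonclassical chain. HLA-E was at 27.4, 26.4 and 27.4 FPKM in oeNC and 26.2, 29.9 and 26.2 FPKM in oeSTUB1 libraries, with means of 27.1 ± 0.586 and 27.4 ± 2.11 FPKM (SD, n = 3). Its log2 fold change of 0.01 (95% interval -0.17 to 0.20, adjusted p = 0.923, limma) turned to -0.05 without oeSTUB1 replicate 2, to below 0 without oeNC replicate 2 (adjusted p = 0.991) and to -0.01 and -0.07 with median-ratio scaling and quantile normalization, so no direction is given for it. HLA-F was at 0.679, 0.550 and 0.599 FPKM in oeNC and 0.558, 0.565 and 0.598 FPKM in oeSTUB1 libraries, from 108 to 136 fragments. Its groups overlapped and its log2 fold change was -0.07 (95% interval -0.43 to 0.29, adjusted p = 0.800, limma).

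Fragments of class I genes that are alike can be assigned to the wrong copy. Exact stretches shared in the annotation describe how alike the reference copies are and do not bound such errors. The HLA alleles of these cells were not examined, and fragments that differ from the reference can be lost or misassigned. In GENCODE transcripts 2.72% of the 50-base stretches of HLA-B, 5.38% of HLA-C, 4.34% of HLA-E and 0.977% of HLA-F were also present in another gene. For stretches of 100 bases the shares were 0 for HLA-B and HLA-F, 0.126% for HLA-C and 0.491% for HLA-E. A sum over the 4 heavy chains depends less on how fragments were split among them. It was 85.5, 81.8 and 84.8 FPKM in oeNC and 81.5, 91.9 and 80.0 FPKM in oeSTUB1 libraries. The groups overlapped, with means of 84.1 ± 1.95 and 84.5 ± 6.45 FPKM (SD, n = 3, two-sided exact permutation p = 1.0, where 0.1 is the smallest p that 3 libraries against 3 can give). Without oeSTUB1 replicate 2 the log2 ratio of the means was -0.06, and with all libraries it was 0.01.

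The ratio of B2M to the summed heavy chains was formed after the values had been seen. It was 0.693, 0.690 and 0.704 in oeNC and 0.919, 1.02 and 0.994 in oeSTUB1 libraries. All oeSTUB1 libraries were above all oeNC libraries, and replicate 2, which was highest for B2M and for the heavy chains alike, was also the highest in this ratio. The means of 0.696 ± 0.0072 and 0.978 ± 0.0536 (SD, n = 3) differed 1.41-fold, with an exact permutation p of 0.1, the smallest possible here. The log2 ratio of the means was 0.49, and 0.46 without oeSTUB1 replicate 2. Taken against HLA-C alone, the ratio was 1.21 ± 0.0435 in oeNC and 1.79 ± 0.0544 in oeSTUB1 cells. HLA-B per HLA-C was 0.168 ± 0.0303 and 0.222 ± 0.0351, and those groups overlapped (exact permutation p = 0.2).

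**Figure D2:**
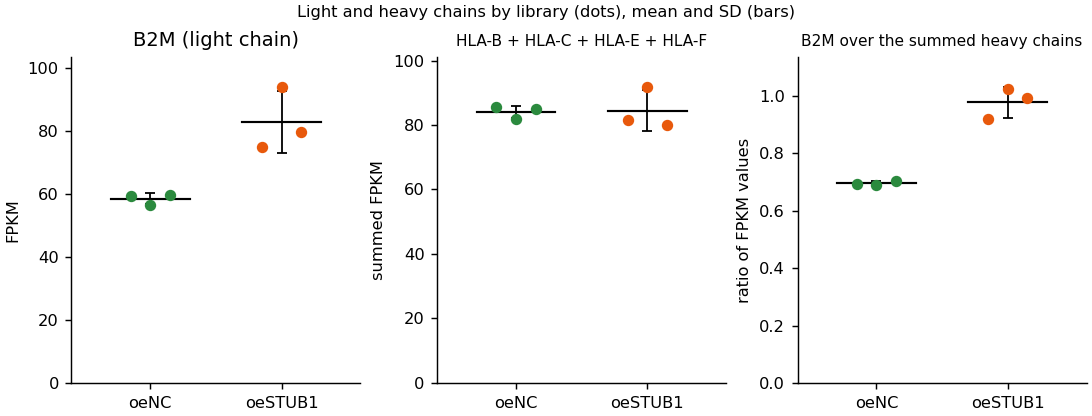
B2M in FPKM, the summed FPKM of HLA-B, HLA-C, HLA-E and HLA-F, and the ratio of B2M to that sum (vertical axes from 0), with dots for the 3 oeNC and 3 oeSTUB1 libraries and mean and SD as line and bar. The summed heavy chains overlap between the groups (80.0 to 91.9 FPKM in oeSTUB1), and the ratio does not (0.690 to 0.704 against 0.919 to 1.02).

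TAP1 and TAP2 form the transporter that carries peptides into the endoplasmic reticulum, and both lie on the minus strand of chromosome 6, TAP1 from 32845209 to 32853978 and TAP2 from 32821833 to 32838780. TAP1 was at 10.4, 9.32 and 10.2 FPKM in oeNC and 10.9, 11.7 and 11.1 FPKM in oeSTUB1 libraries, and TAP2 at 4.61, 4.60 and 4.99 FPKM and 6.04, 5.48 and 5.60 FPKM. For each gene the oeSTUB1 libraries were above the oeNC libraries. The log2 fold change was 0.17 for TAP1 (95% interval -0.03 to 0.36, adjusted p = 0.230, limma) and 0.26 for TAP2 (95% interval 0.05 to 0.48, adjusted p = 0.0964, limma). That of TAP2 was 0.29 and passed the test without oeSTUB1 replicate 2 (adjusted p = 0.0282, limma), while that of TAP1 did not pass in any of 15 alternatives. TAP1 per TAP2 went from 2.11 ± 0.132 to 1.97 ± 0.166 with STUB1 overexpression (SD, n = 3, exact permutation p = 0.4).

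Overlapping annotation touches both transporter genes. PSMB8-AS1, an antisense RNA, shares 456 exon bases with TAP1 and 618 with PSMB8, and the strand setting of the counting is not given in the sources used here, so reads of these genes and of the antisense RNA cannot be told apart. PSMB8-AS1 had 3, 1 and 3 fragments in oeNC and 26, 22 and 36 in oeSTUB1 libraries, beside 921 to 1105 fragments of TAP1. In TAP2, 31.3% of the 50-base stretches and 30.3% of the 100-base stretches occur in another annotated gene.

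NLRC5 was the least abundant of the 9, at 0.346, 0.343 and 0.356 FPKM in oeNC and 0.554, 0.399 and 0.717 FPKM in oeSTUB1 libraries, from 99 to 204 fragments. The oeSTUB1 libraries were all above the oeNC libraries but spread widely, with a coefficient of variation of 28.6% against 1.99%. The means were 0.348 ± 0.0069 and 0.557 ± 0.159 FPKM (SD, n = 3), and the log2 fold change was 0.52 with a standard error of 0.216, a 95% interval of 0.02 to 1.02 and an adjusted p of 0.153 (limma). Leaving out oeSTUB1 replicate 2, the lowest of its group, gave 0.71, which passed the test (limma, adjusted p = 0.0310), and leaving out replicate 3, the highest, gave 0.35 (limma, adjusted p = 0.328). NLRC5 was called in 1 of 14 alternatives, whose log2 fold changes went down to 0.20 with a pseudocount of 1.

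Leaving out the library that stood apart therefore moved the count of genes called higher from 2 to 4, with B2M, TAP2, TAPBP and NLRC5, while 14.8% of all tested genes were then called higher. Leaving out any oeNC library gave 0 called genes of the 9, with fewer libraries in the fit and 477 to 564 of all tested genes called higher in place of 1076. Why the library that stood apart moves these calls was not tested.

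**Figure D3:**
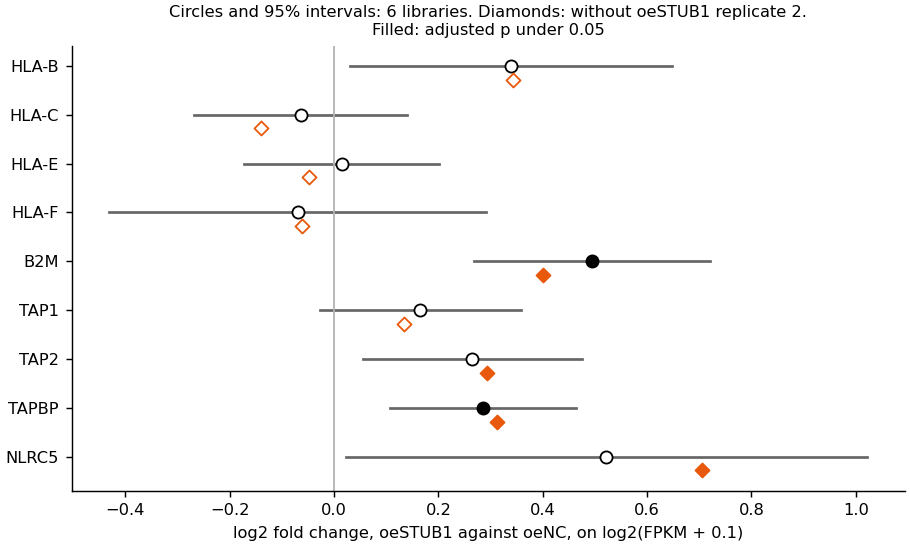
Log2 fold change of oeSTUB1 against oeNC on log2(FPKM + 0.1) for each gene (horizontal axis), as circles with 95% intervals over 6 libraries and as diamonds without oeSTUB1 replicate 2, filled where the adjusted p was under 0.05. B2M (0.49) and TAPBP (0.29) are filled with all libraries, and TAP2 (0.29) and NLRC5 (0.71) join them without replicate 2.

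The order of levels in FPKM was the same in both groups, from B2M through HLA-C, HLA-E, TAPBP, TAP1, HLA-B, TAP2 and HLA-F to NLRC5. Neighbours in this order whose libraries overlapped were TAP1 and HLA-B in both groups, and HLA-F and NLRC5 in oeSTUB1 cells. Among all tested genes ranked by mean FPKM, B2M stood at percentile 95.4, HLA-B at 66.1 and NLRC5 at 16.7. Together the 9 genes took 0.0475% ± 0.00119 of the fragments in oeNC and 0.0573% ± 0.00375 in oeSTUB1 libraries (SD, n = 3), and these groups did not overlap (exact permutation p = 0.1, the smallest possible). B2M weighs most in this share, at 5570 to 6242 fragments in oeNC and 7344 to 8849 in oeSTUB1 libraries. The share therefore does not show a rise of each gene, and the 4 heavy chains overlapped between the groups.

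The 9 genes were compared with other genes by the mean of their standardised log2 levels, which was lowest in oeNC replicate 2 (-0.861) and highest in oeSTUB1 replicate 2 (0.743). The genes whose levels followed this profile most closely over the 6 libraries, among those with a mean of at least 1 FPKM, were LOC105376805 and C1orf131 (Pearson r of 0.991 each), MED27 (0.989), NAPRT (0.988) and KAT14 (0.987). With 6 points that share 2 groups, 534 genes had an r above 0.9, so the order among them is a description only.

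Of the 9 genes 7 lie in the MHC region of chromosome 6. Between HLA-F and TAPBP, the outermost of them, 102 other tested genes were listed, with a median log2 fold change of 0.03. Of these, 8 (7.84%) were called higher and 6 (5.88%) lower, near the 7.01% and 6.59% of all tested genes. On the rest of chromosome 6, 29 of 579 tested genes (5.01%) were called higher and 53 (9.15%) lower, with a median of 0.00.

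Further genes of the pathway were followed in 8 lists written from textbook roles, with earlier results of these data known. They held 90 genes, of which 77 were tested, 14 (18.2%) were called higher and 2 lower. In all 20.8% were called, beside 13.6% of all tested genes (7.01% higher and 6.59% lower). Because the lists were written with results known, this difference is a description and no independent evidence. Their median log2 fold change was 0.22. Without oeSTUB1 replicate 2 the calls in the lists were 24 higher and 7 lower. Over all tested genes they then numbered 2274 higher and 1838 lower, in place of 1076 and 1012. Without single other libraries the lists gave 5 to 9 higher and 1 to 3 lower, and all tested genes 477 to 794 and 456 to 821.

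PSMB8 and TAPBPL, which act in the cutting and the editing of peptides, were among the genes of these lists with the largest rises. The immunoproteasome replaces catalytic subunits of the constitutive proteasome and favours peptides that bind class I, and 3 of 6 genes of its list were called higher and 0 lower by limma (0 lower at an unadjusted p under 0.05 and by limma-voom), with a median of 0.50. PSMB8, a catalytic subunit, was at 2.15, 2.23 and 2.02 FPKM in oeNC and 7.38, 9.59 and 7.50 FPKM in oeSTUB1 libraries. The libraries of the groups were far apart, at a 3.82-fold ratio of means, a log2 fold change of 1.88 with a standard error of 0.125 (adjusted p = 0.000166, limma) and a call in 15 of 15 alternatives. Its fragments numbered 113 to 118 and 388 to 484. The part of the overlapping antisense PSMB8-AS1 in them cannot be told, since the strand setting is not given. PSMB9, its neighbour and the partner subunit, was at 8.05, 8.23 and 7.28 FPKM and 6.73, 10.7 and 6.42 FPKM, with overlapping groups and a log2 fold change of -0.02 (adjusted p = 0.954, limma). PSMB9 was lower at -0.25 (limma, adjusted p = 0.0444) once oeSTUB1 replicate 2 was left out.

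PSMB10, the remaining inducible catalytic subunit, had a log2 fold change of 0.51 (adjusted p = 0.115, limma) and passed at 0.69 without oeSTUB1 replicate 1 (adjusted p = 0.0447, limma), when 4 of the 6 genes were called higher. PSMB8 was the 1 gene of the list called higher without any 1 oeNC library or oeSTUB1 replicate 3. PSME1 and PSME2, which form the PA28 activator of the proteasome, rose by 0.50 and 0.56 on the log2 scale (adjusted p = 0.0458 and 0.0328, limma). Both lost the call without any 1 oeNC library or oeSTUB1 replicate 3, with adjusted p-values of 0.0753 to 0.1498 for PSME1 and 0.0761 to 0.122 for PSME2. Of the 3 constitutive catalytic subunits PSMB5, PSMB6 and PSMB7, 0 were called by limma or limma-voom and 0 at an unadjusted p under 0.05, and the median was 0.10. PSMB6 was lower at -0.31 (limma, adjusted p = 0.0053) without oeSTUB1 replicate 2. PSMB8 per PSMB5 went from 0.0190 ± 0.00084 to 0.0674 ± 0.00407 in FPKM (SD, n = 3, exact permutation p = 0.1, the smallest possible).

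Among 10 peptide loading partners 1 was called higher and 0 lower, with 5 higher and 0 lower at an unadjusted p under 0.05 and the same calls by limma-voom. The called gene was TAPBPL, which encodes the tapasin-related peptide editor TAPBPR. TAPBPL was at 0.336, 0.415 and 0.438 FPKM in oeNC and 0.915, 0.993 and 1.00 FPKM in oeSTUB1 libraries, and no oeNC library reached the lowest of these. It rose by 1.11 on the log2 scale with a standard error of 0.159 (limma, adjusted p = 0.0038). The chaperones of the loading complex gave 0.18 for CALR (adjusted p = 0.240), 0.10 for CANX (adjusted p = 0.648) and 0.12 for PDIA3 (adjusted p = 0.390), and the trimming peptidases 0.25 for ERAP1 (adjusted p = 0.335) and 0.52 for ERAP2 (adjusted p = 0.132, all limma). Without oeSTUB1 replicate 2, CANX (0.24, adjusted p = 0.0092, limma) and ERAP1 (0.42, adjusted p = 0.0111, limma) passed, as did HSPA5 and SEC61A1.

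**Figure D4:**
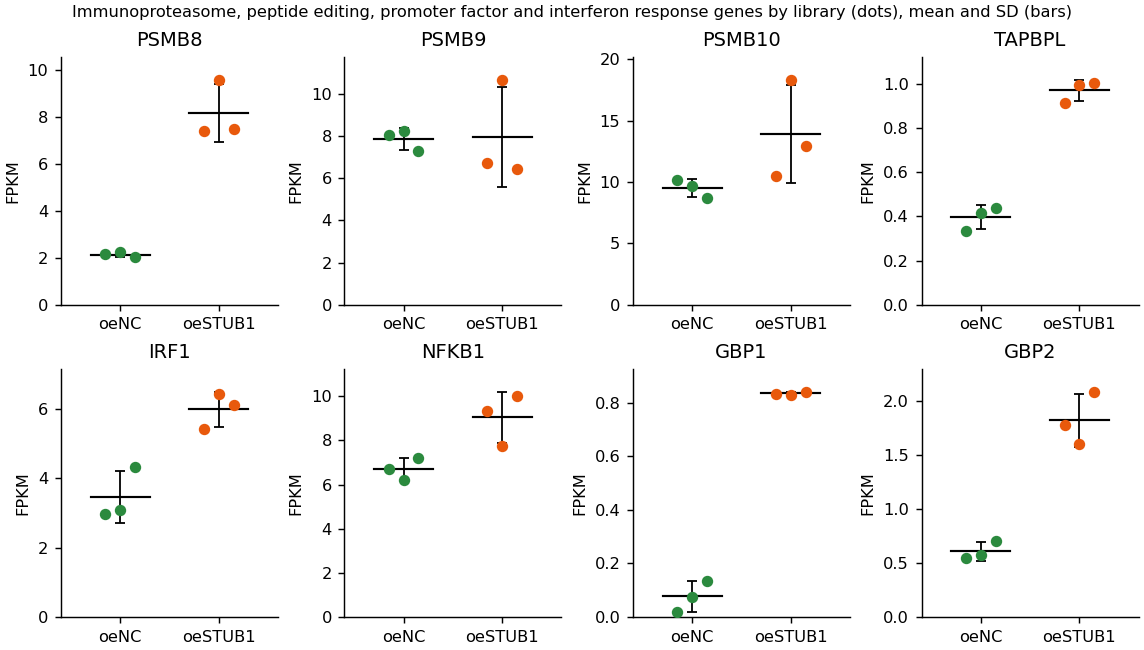
FPKM (vertical axes from 0) of PSMB8, PSMB9, PSMB10, TAPBPL, IRF1, NFKB1, GBP1 and GBP2 in the 3 oeNC and 3 oeSTUB1 libraries, with dots for libraries and mean and SD as line and bar. PSMB8 (7.38 to 9.59 against 2.02 to 2.23 FPKM) and TAPBPL separate the groups, whereas PSMB9 overlaps between them.

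Factors that act at class I promoters were mostly without a call, with 1 of 14 tested genes higher and 0 lower by limma, 5 higher and 1 lower at an unadjusted p under 0.05, and 2 higher and 0 lower by limma-voom. IRF1, which binds interferon-stimulated response elements, was at 2.96, 3.07 and 4.31 FPKM in oeNC and 5.41, 6.41 and 6.12 FPKM in oeSTUB1 libraries, with no overlap. It rose 1.73-fold in mean FPKM (log2 fold change 0.79, adjusted p = 0.0146, limma) and lost the call without oeNC replicate 1 or 2 (adjusted p = 0.0642 and 0.0698, limma). NFKB1, an NF-kappa B subunit that binds kappa B sites, missed the threshold (0.42, adjusted p = 0.0543, limma) and passed without oeSTUB1 replicate 2 (0.52, adjusted p = 0.0041, limma), as did RFXANK and RELA. RFX5, a subunit of the RFX complex that binds the X box, had a log2 fold change of 0.12 (adjusted p = 0.462, limma), and without oeSTUB1 replicate 2 it passed at 0.21 (adjusted p = 0.0241, limma). CIITA, the class II counterpart of NLRC5, was too low to be tested, at up to 0.0088 FPKM.

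Of 18 tested genes of the interferon response, 7 were called higher and 0 lower by limma, beside 7.01% and 6.59% of all tested genes. At an unadjusted p under 0.05, 10 were higher, beside 16.0% of all tested genes, and 1 was lower. By limma-voom 6 were called higher and 0 lower. The median was 0.42, with 16 genes above 0 and 2 below. With each library left out, OAS1 (-0.38 to -0.19) and STAT2 (-0.18 to -0.02) stayed below 0. GBP1 and GBP2, guanylate-binding proteins induced by interferon, showed the largest rises. GBP1 had 2, 8 and 15 fragments in oeNC and 87, 83 and 87 in oeSTUB1 libraries, at means of 0.0768 ± 0.0580 and 0.835 ± 0.0065 FPKM (SD, n = 3, log2 fold change 2.46, adjusted p = 0.0012, limma). GBP2 was at 0.609 ± 0.0856 and 1.83 ± 0.246 FPKM (log2 fold change 1.44, adjusted p = 0.0013, limma). Both were called without each library in turn. ISG15, IFIT3, MX1, IFI6 and WARS1 rose by 0.95, 0.94, 0.87, 0.74 and 0.29 on the log2 scale (adjusted p = 0.0307, 0.0214, 0.0447, 0.0451 and 0.0299, limma). Each of these 5 lost its call without oeNC replicate 1 (adjusted p = 0.0849 to 0.152), oeNC replicate 2 (0.0885 to 0.155) and oeSTUB1 replicate 1 (0.0525 to 0.113). All but IFIT3 did so without oeNC replicate 3 (0.0738 to 0.108), and IFIT3, MX1 and WARS1 without oeSTUB1 replicate 3 (0.0665 to 0.0995, limma).

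Class I-like molecules did not share a direction, with 1 of 11 tested genes higher and 2 lower and a median of -0.03, or 2 higher and 3 lower without oeSTUB1 replicate 2, when MR1 and FCGRT also passed. MICA and MICB, both ligands of the NKG2D receptor of NK cells and T cells, moved in opposite directions. MICA was at 6.63, 8.32 and 9.22 FPKM in oeNC and 11.0, 13.3 and 11.1 FPKM in oeSTUB1 libraries (log2 fold change 0.55, adjusted p = 0.0369, limma). MICB was at 3.96, 3.59 and 3.93 FPKM and 2.32, 2.30 and 2.53 FPKM (-0.66, adjusted p = 0.0054, limma), and neither gene overlapped between the groups. MICB was called in 15 of 15 alternatives, whereas MICA lost its call without oeNC replicate 1 or 2 (adjusted p = 0.119 and 0.106, limma) and without oeSTUB1 replicate 1 or 3 (adjusted p = 0.0671 and 0.0681, limma). ULBP1, another NKG2D ligand, had a log2 fold change of -0.72 (limma, adjusted p = 0.0474) and lost the call without any 1 oeNC library or oeSTUB1 replicate 1 (adjusted p = 0.0726 to 0.148).

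The 7 genes of class I turnover, among them SUSD6, TMEM127 and WWP2, which route class I to lysosomes, gave 0 calls by limma and limma-voom, with 0 higher and 1 lower at an unadjusted p under 0.05. Their median was -0.02. SPPL3 was lower at -0.22 (limma, adjusted p = 0.0188) without oeSTUB1 replicate 2. Of 8 tested genes of the MHC class II pathway, 1 was called higher and 0 lower, as by limma-voom, with 2 higher and 1 lower at an unadjusted p under 0.05. It was CTSS, a lysosomal protease that degrades the invariant chain, at 3.01 ± 0.329 and 6.995 ± 0.980 FPKM (SD, n = 3, log2 fold change 1.19, adjusted p = 0.0013, limma). CD74, the invariant chain, had a log2 fold change of 0.90 (adjusted p = 0.0556, limma) and passed without oeSTUB1 replicate 2 (1.02, adjusted p = 0.0321, limma). HLA-DRA was at 0.376 ± 0.279 and 0.630 ± 0.0736 FPKM with overlapping groups (adjusted p = 0.227, limma).

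**Figure D5:**
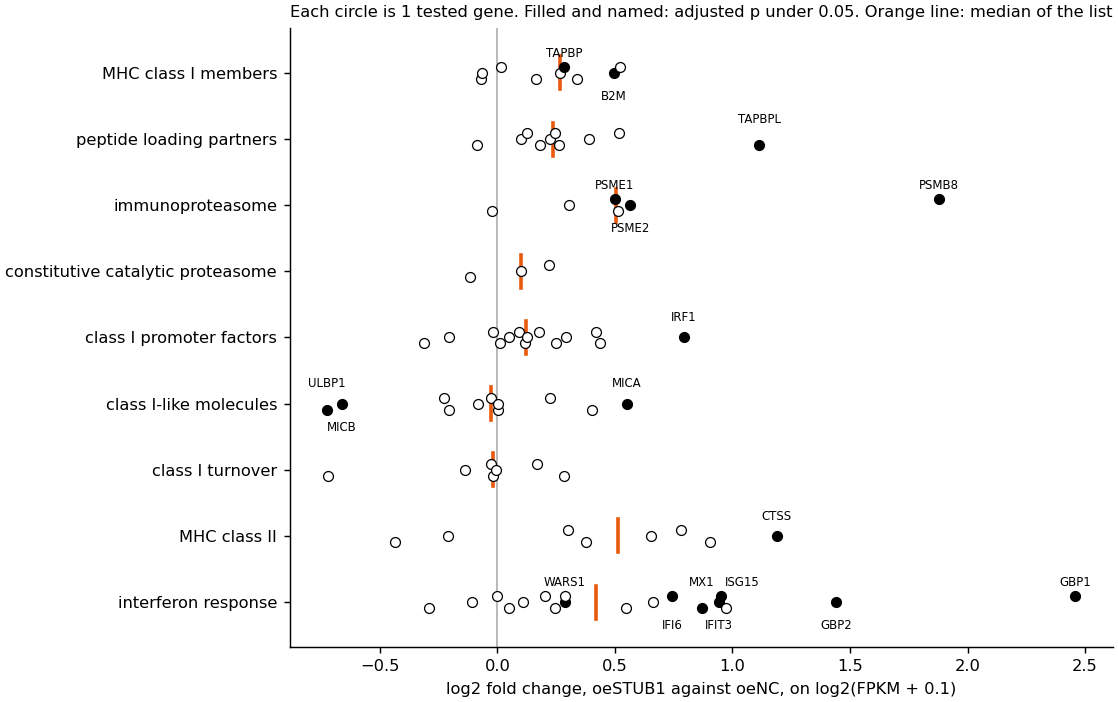
Log2 fold change of oeSTUB1 against oeNC on log2(FPKM + 0.1) (horizontal axis) for each tested gene of the 9 class I genes and of 8 pathway lists, 1 circle per gene, filled and named where the adjusted p was under 0.05, with an orange line at each median. PSMB8 at 1.88, TAPBPL at 1.11 and GBP1 at 2.46 lie farther to the right than any of the 9 class I genes, whose highest value is 0.52.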

How the data were processed

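The submitters' processing notes name fastp 0.20.1, HISAT2 2.1.0, HTSeq 0.11.2, R 3.2.0, DESeq2 1.22.2 and the build GRCh38.p13, and the libraries were made with a VAHTS Universal kit from TRIzol-extracted RNA. The strand setting and the annotation are not given in the sources used here. The authors deposited 1 table of FPKM values for 23569 genes and 6 libraries, whose columns were matched to the labels by name, with 0 columns left over. FPKM is scaled to gene length and to the library total, so a change in a few abundant genes shifts all other values.

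From these values log2(FPKM + 0.1) was computed for the 15353 genes averaging 0.1 FPKM or more and compared by limma 3.58.1 in R 4.3.3 (lmFit, eBayes with trend, two-sided, Benjamini-Hochberg over all genes tested), with a call at an adjusted p under 0.05. Fold changes on this scale understate those of low genes. Sums and ratios of FPKM were compared by exact permutation of the 6 libraries. Each FPKM was a whole multiple of what 1 fragment is worth, and whole fragments were recovered for 23569 genes (100.0%, within 5e-06 of a whole number), up to a common divisor per gene. Recovery and limma were checked on simulated data. All simulated libraries had the same spread, so the check of limma does not cover a library that stands apart, as oeSTUB1 replicate 2 does. Intervals cover the spread between libraries, and fragment numbers carry counting error only. Alternatives were 2 other pseudocounts, 2 other filters, 2 scalings, no trend, the replicate number as a block, each library left out and limma-voom on fragments, with the ratio of B2M to heavy chains added after seeing the data.

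The 9 genes, the lists and the tests were chosen with earlier results of these data known. The genes named are the 9, the list genes that passed (up to 6 per list, 1 more for interferon genes, WARS1, being named after its values were seen), list genes in the same step of the pathway, STUB1, UHRF1, DNMT1, overlapping genes and the 5 genes nearest in pattern. NFKB1, OAS1, STAT2, the genes that pass without oeSTUB1 replicate 2 and the cell type markers were named after their values were seen. A pair of genes from the lists is not reported here. Replicate numbers did not pair libraries, with correlations of deviations of -0.05, -0.05 and 0.06. Positions are from GENCODE release 29 on GRCh38, and promoter windows from RefSeq on GRCh38.p14. Python 3.11.15 was used for the other steps.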

Additional observations from a re-analysis of the deposited data

How the results depend on the processing

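Limits come from 3 libraries a group and from oeSTUB1 replicate 2. The count of the 9 class I genes called higher was 2, and 1 with a filter at a mean of 1 FPKM (where HLA-F and NLRC5 are not tested), median-ratio scaling, quantile normalization, no trend, limma-voom and the replicate number as a block (1), and 0 to 4 when each library was left out. B2M was called in 12 of 15 alternatives at log2 fold changes of 0.40 to 0.56, and TAPBP in 4 of 15 at 0.22 to 0.31. HLA-E turned from 0.01 to -0.0072 (median-ratio scaling) and -0.066 (quantile normalization), and lay between -0.0476 and 0.0467 with a library left out. Genes of all tested called higher numbered 1076, 477 to 2274 with a library left out and 741 with the replicate block, and those called lower 1012, 456 to 1838 and 747. List genes called higher numbered 14, and 9 with no filter, 8 with no trend, 9 with the replicate block and 5 to 24 with a library left out. Those called lower numbered 2, and 1 with no filter, 1 with no trend, 3 with the block and 1 to 7 with a library left out. The log2 ratio of B2M per heavy chain was 0.49, 0.56 against HLA-C alone, 0.46 to 0.54 with a library left out and 0.49 with differences taken within replicate numbers, and the summed heavy chains gave -0.06 to 0.04 with a library left out and below 0.01 within replicate numbers. The cause of these differences was not tested. The block took degrees of freedom from a fit in which the numbers mark no known pairing, and TAPBP lost its call under it (adjusted p = 0.107, limma). None of the alternatives moved the median of all tested genes by over 0.1.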
